A study of Mus musculus with 2 samples.

Results

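Non-effector memory-like (non-EM-like) CD8+ T cells are 1 of the 16 clusters that the authors named among kidney cells of mice with nephrotoxic nephritis (NTN). The members are all cells that carry this cluster name in the authors' table of cells. They number 709 of 7314 cells, with 659 of 5470 cells in the WT library and 50 of 1844 cells in the Vsir-/- library. Because the name was assigned after clustering on gene expression, differences between the cluster and the rest of the cells are given as descriptions.

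CD8+ T cells read peptides on MHC class I with a T cell receptor and the CD8 coreceptor, a pair of the chains encoded by Cd8a and Cd8b1. Before activation they circulate between blood and lymph nodes, guided by homing receptors such as CCR7, and their resting state depends on the transcription factors TCF-1 (Tcf7) and LEF-1 (Lef1). Memory-phenotype cells keep part of this program and add Ly6C, CD122 (Il2rb), EOMES, CXCR3, and a store of Ccl5 mRNA, whereas EM cells lose lymphoid homing and carry granzymes. VISTA, the product of Vsir, is an inhibitory checkpoint of myeloid cells that is also found on resting T cells.

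Both libraries came from 8-week-old C57BL/6 mice with NTN, a model of antibody-mediated glomerular injury, and differed in genotype (WT or Vsir-/-). The mice had received 200 μg of sheep IgG in adjuvant and, 4 days later, sheep serum against the glomerulus (2 μL per g of body weight according to the labels, whereas the methods of the study state a higher dose). Kidneys were digested with liberase (0.2 mg/mL) for 30 minutes at 37°C before droplet-based single-cell RNA (scRNA) sequencing. Each genotype had 1 library, and the number of mice behind each was not given in the sources used here, so no test between genotypes was possible. Values are counts of unique molecular identifiers (UMIs) summed over the cells of the cluster and library, or UMIs per 1000000 UMIs of the same cells (CPM), and ratios are Vsir-/- over WT. The 95% intervals are exact Poisson for a level, Clopper-Pearson for a share of cells, and conditional for a ratio, and they cover counting error only.

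The libraries stood apart in several ways besides genotype. According to the labels, sorted CD45+ cells made up the WT library and unsorted kidney cells the Vsir-/- library, whereas the methods of the study describe a CD45+ sort for both. Xist, the RNA that coats the inactive X chromosome, had 0 UMIs in the 659 WT cells and 338 UMIs in the 50 Vsir-/- cells. The Y-linked genes Ddx3y and Eif2s3y had 241 and 282 UMIs in the WT cells and 0 and 0 UMIs in the Vsir-/- cells. The methods of the study describe male mice only, and the sex-linked transcripts of the Vsir-/- library went against that description. Of 20299 features, 4827 had no UMI anywhere in the WT library and 1053 had none anywhere in the Vsir-/- library. A gene that is not expressed also gives such a feature. Gene symbols differed as well, since these features included 132 pairs of symbols for the same gene. In each pair the older symbol was in the WT library and the newer one in the Vsir-/- library. Over both libraries, 5 barcodes occurred in each, and 2 of these belonged to a cell of the cluster. Genotype, sex-linked pattern, sort, and symbol set separate the same 2 libraries and cannot be told apart.

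The cluster held 5060620 UMIs in the WT library and 442136 UMIs in the Vsir-/- library. The median cell had 7117 UMIs and 1919 genes in the WT library and 8325.5 UMIs and 2126.5 genes in the Vsir-/- library, with mitochondrial medians of 3.90% and 3.63%. Non-EM-like cells were 77.0% (95% interval 74.0 to 79.8) of the 856 WT cells in the CD8+ T clusters and 64.1% (52.4 to 74.7) of the 78 Vsir-/- cells. The denominator matters here because 90 of 197 WT cells and 7 of 28 Vsir-/- cells of the EM-like CD8+ cluster had no UMI of Cd8a, Cd8b1, or Cd4. A further 3 WT and 6 Vsir-/- cells of that cluster had Cd4 without a CD8 chain. Restricted to cells with a CD8 chain and no Cd4 UMI, the shares were 86.3% and 76.2%.

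The label was checked against its markers. Cd8a was measured at 440.1 CPM (422.0 to 458.7) in the WT cells and 289.5 CPM in the Vsir-/- cells. Cd8b1 was at 931.3 and 624.2 CPM. Of the WT cells, 645 had a CD8 chain without Cd4, 14 had both, and 0 had neither, and of the Vsir-/- cells 48 had a CD8 chain without Cd4 and 2 had neither. At least 1 of 6 T cell transcripts (Cd3d, Cd3e, Cd3g, Trac, Trbc1, Trbc2) was found in all 659 WT cells and in all but 2 Vsir-/- cells. The members thus carried the transcripts of CD8+ T cells with few exceptions, and Cd4, which marks helper T cells, was at 3.56 CPM in the WT cells and at 0 UMIs in the Vsir-/- cells.

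The naive-type markers separated the cluster from EM-like CD8+ cells. Dapl1 was at 488.1 CPM in the WT non-EM-like cells and 2.43 CPM in the WT EM-like cells. Ccr7 was at 433.5 and 15.8 CPM in the same order. All of Dapl1, Lef1, Tcf7, and Ccr7 were detected in 334 of 659 WT cells and in 18 of 50 Vsir-/- cells, against 1 of 197 and 0 of 28 EM-like cells. At the other end, none of the 4 was detected in 2 WT and 3 Vsir-/- cells of the cluster. The plot of marker levels sets the cluster beside its neighbors and beside B cells.

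**Figure D1:**
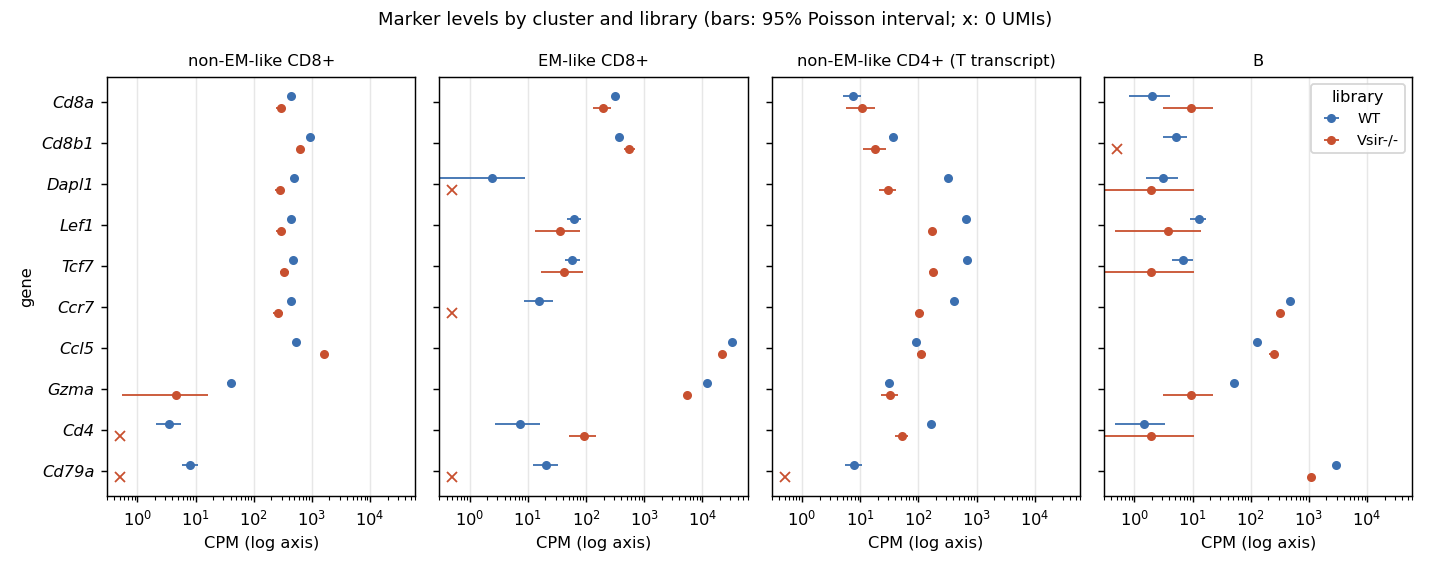
Levels of 10 genes (CPM, log axis) in non-EM-like CD8+, EM-like CD8+, and non-EM-like CD4+ T cells and in B cells, with 1 point for each library, 95% Poisson intervals as bars, and crosses for 0 UMIs. In the non-EM-like CD8+ panel the 6 markers of the label lie between 262.4 and 931.3 CPM in both libraries, whereas Ccl5 is at 539.5 CPM in WT and 1585 CPM in Vsir-/- cells.

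The first comparison asked what differed between the Vsir-/- and WT cells of the cluster. Of 8919 genes with at least 20 UMIs over both libraries, 859 (9.63%) had a CPM at least 2-fold higher in the Vsir-/- cells and 1123 (12.6%) at least 2-fold lower. The median log2 ratio of all these genes was -0.03. Depth limits the lower side, because 870 of the 1123 lower genes had 3 or fewer UMIs in the Vsir-/- cells and 348 had 0. With renamed symbols merged and only features seen in both libraries, a setting added once the values were known, the counts were 787 (8.98%) and 980 (11.2%) of 8768 genes. The genes past 2-fold were also followed in 4 unrelated clusters. Of the 859 higher genes, 519 were measured in B cells, NK cells, neutrophils, and M2-like R2 macrophages alike, and 109 of them were at least 2-fold higher in all 4. Of the 1123 lower genes, 496 were measured in those 4 clusters, and 96 of them were at least 2-fold lower in all 4. The share of all measured genes past 2-fold in all 4 is not given here, so these counts are a description.

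**Figure D2:**
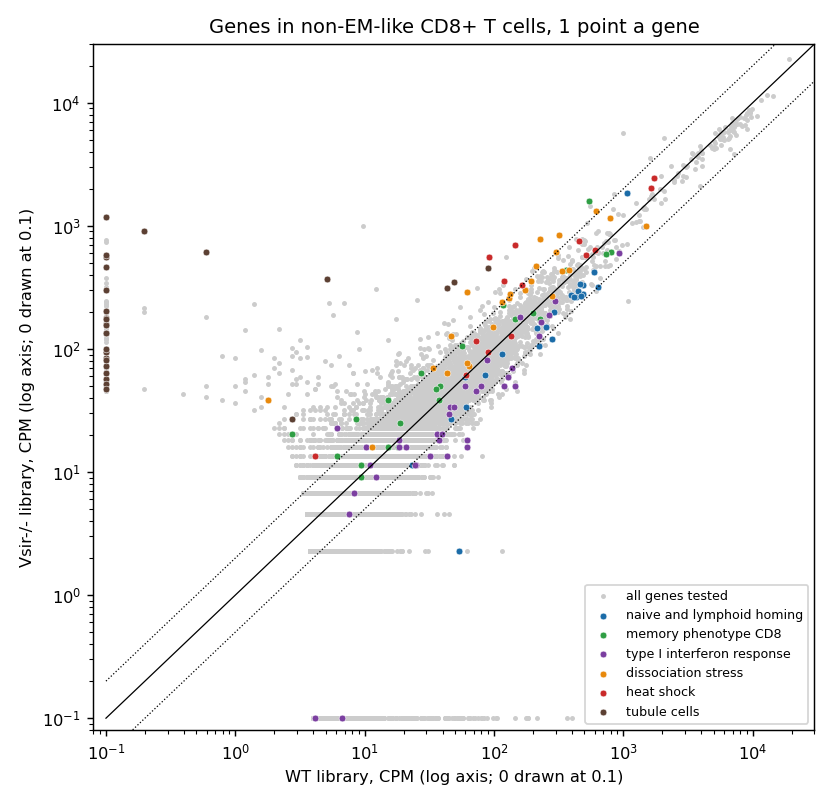
Level of each gene in non-EM-like CD8+ T cells of the WT library (x axis) and the Vsir-/- library (y axis), in CPM on log axes, with colored gene lists, a line of equality, and dotted lines at 2-fold. Most naive genes lie just below equality and most dissociation stress and heat shock genes above it, whereas tubule genes lie far above it, many at 0 UMIs in WT.

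Vsir itself was the first check of the genotype labels. In the WT cells Vsir had 579 UMIs (114.4 CPM) in 361 of 659 cells, or 54.8% (50.9 to 58.6). In the Vsir-/- cells it had 1 UMI in 1 of 50 cells, with a log2 ratio of -5.66 (-10.97 to -3.18). After thinning of every cell to 1000 UMIs, 12.4% of the WT cells kept a Vsir UMI, compared with 6.19% of WT EM-like CD8+ cells and 2.43% of WT B cells. The labels and the Vsir transcript thus went together. Within the WT library, the thinned intervals of the non-EM-like and EM-like CD8+ cells (10.0 to 15.2 and 3.24 to 10.6) overlapped slightly.

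A list of 12 genes held Vsir, partners of VISTA, and other immune receptors and ligands, and 10 passed the filter. Of these, 0 were at least 2-fold higher in the Vsir-/- cells (background 9.63%) and 4 were at least 2-fold lower (12.6%). Among the 4 was Vsir itself, whose call the genotype fixed. The others (Lrig1, Tnfrsf14, and Btla) had 0, 0, and 2 UMIs in the Vsir-/- cells, so the count is a description. The list median, which includes Vsir, was -0.70 after the all-gene median was subtracted. The same median was 0.09 in EM-like CD8+ cells, -0.76 in B cells, and -1.22 in neutrophils. Selplg, which encodes the VISTA receptor PSGL-1, was the most abundant at 437.3 CPM in WT and 291.8 CPM in Vsir-/- cells, a log2 ratio of -0.58 (-0.85 to -0.33). Igsf11, another VISTA ligand, was detected as 6 UMIs in the Vsir-/- cells, and its symbol had no UMI anywhere in the WT library. The costimulatory receptor Cd28 went the other way, at 130.8 and 194.5 CPM with a log2 ratio of 0.57 (0.23 to 0.90). Cd27, a receptor of the TNF family, was at 149.6 and 99.5 CPM. Btla, an inhibitory receptor, had 2 UMIs in the Vsir-/- cells (20.6 CPM in WT and 4.52 CPM in Vsir-/- cells). Cd47, Lgals9, and Tnfrsf26 had log2 ratios of -0.55, -0.28, and -0.87, and Tnfrsf14, Lrig1, and Cd200r1 had 0 UMIs in the Vsir-/- cells and at most 4.94 CPM in the WT cells.

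Genes of the naive state and lymphoid homing had lower levels in the Vsir-/- cells, and so they had in most other clusters compared. All 23 listed genes passed the filter, 22 had a log2 ratio below 0, 5 were at least 2-fold lower (background 12.6%), 0 were at least 2-fold higher (9.63%), and the list median was -0.64. The list median was also -0.93 in EM-like CD4+ cells, -0.47 in NK cells, -0.84 in B cells, -1.20 in neutrophils, and -1.10 in M2-like R2 macrophages, and -0.07 in EM-like CD8+ cells. Satb1, a chromatin organizer of T cells, was at 637.7 CPM in WT and 316.6 CPM in Vsir-/- cells (log2 ratio -1.01, -1.26 to -0.77). Igfbp4 was at 280.0 and 119.9 CPM (-1.22, -1.65 to -0.83). Actn1, an actin crosslinker, was at 222.9 and 106.3 CPM (-1.07, -1.52 to -0.65). The gut-homing receptor Ccr9 stood furthest out, with 273 UMIs in WT cells and 1 UMI in Vsir-/- cells (-4.58, -9.88 to -2.09). The lymph node homing receptor Ccr7 differed less, at 433.5 and 262.4 CPM (-0.72, -1.01 to -0.45). Tcf7 had a log2 ratio of -0.46 (-0.71 to -0.23) and Lef1 one of -0.60 (-0.86 to -0.34). Dapl1, at 488.1 and 278.2 CPM, came with a caution, since 1 Vsir-/- cell supplied 43 of its 123 UMIs. Klf2, the factor that keeps homing receptors transcribed, was the exception, at 1074 CPM in WT and 1848 CPM in Vsir-/- cells (0.78, 0.68 to 0.89). Sums of the whole list were 7607 CPM (7531 to 7684) and 5908 CPM (5683 to 6139). Free RNA was approximated by 233 cells without a T cell transcript from the CD4+ non-EM-like cluster in the Vsir-/- library. With their profile subtracted from the Vsir-/- sums until the tubule genes reached their WT share, the list median moved to -0.08. The amount was set by the summed tubule share of 0.82%, whereas the median Vsir-/- cell held 0.269% and 4 of 50 cells held over 1%. For most cells the subtraction can therefore be too large, here and wherever this setting is given below.

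Shares of cells with a UMI, read at equal depth, gave the same order. Thinned to 1000 UMIs, Satb1 was detected in 48.9% (45.0 to 52.8) of WT cells and 26% (14.6 to 40.3) of Vsir-/- cells. Dapl1 was detected in 32.6% (29.1 to 36.4) and 16% (7.17 to 29.1), compared with 0.106% of thinned WT B cells, which should lack it. Ccr7 was detected in 34.0% (30.4 to 37.7) and 22% (11.5 to 36.0), so that its intervals overlapped. The Satb1 intervals did not overlap, and those of Dapl1 touched only at their ends. Unthinned, the shares were 95.9% and 82% for Satb1, 64.6% and 46% for Dapl1, and 86.9% and 66% for Ccr7. The median depths were 7117 and 8325.5 UMIs per cell in the cluster and 3426 UMIs in WT B cells.

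**Figure D3:**
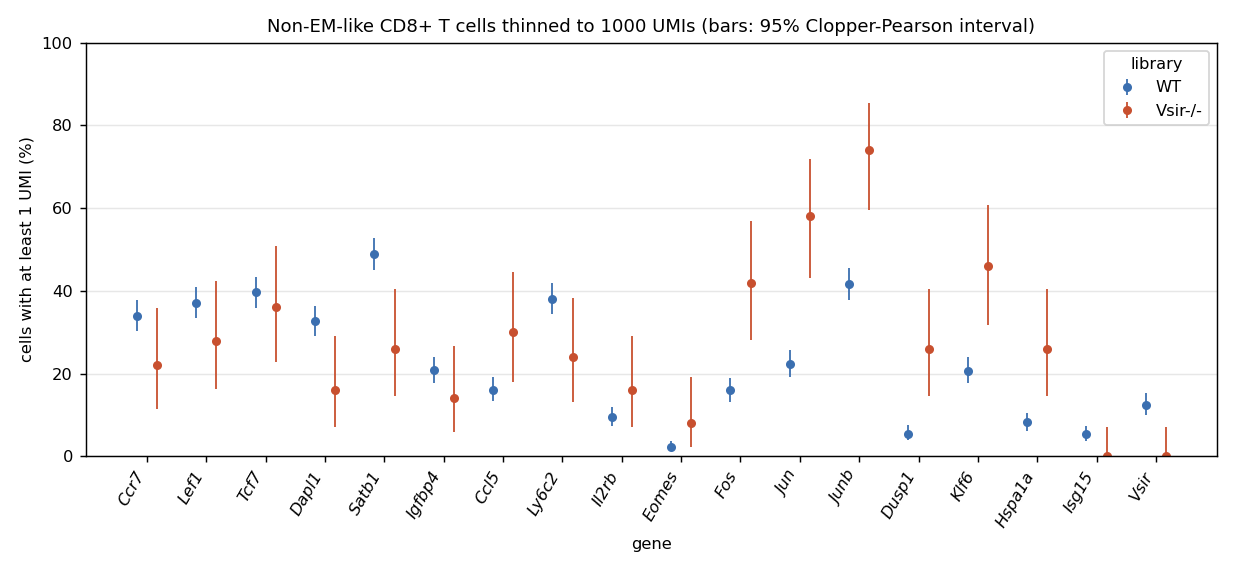
Share of non-EM-like CD8+ T cells with at least 1 UMI of each gene (y axis, percent) after thinning to 1000 UMIs, for 659 WT and 50 Vsir-/- cells, with 95% Clopper-Pearson intervals. The naive genes on the left lie lower in Vsir-/- cells, and the early response genes Fos, Jun, Junb, Dusp1, and Klf6 lie higher, with Jun at 22.3% in WT and 58% in Vsir-/- cells.

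The CD8 and T cell receptor transcripts lay in the same direction as the naive genes. Of 5 CD8 lineage genes, 5 had a log2 ratio below 0 and 1 was at least 2-fold lower (background 12.6%), with a list median of -0.58. That gene was Themis, a signaling protein of T cell selection, at 150.4 CPM in WT and 45.2 CPM in Vsir-/- cells (-1.73, -2.45 to -1.10). Of 18 genes of the receptor complex and its kinases, 17 were below 0 and 1 was at least 2-fold lower, a smaller share than the background of 12.6%, with a list median of -0.41. The median of the receptor list was -0.93 in NK cells, -2.77 in B cells, and -2.79 in neutrophils, and 0.07 in EM-like CD8+ cells. The phosphatase Ptpn22 was the lowest at -1.01 (-1.43 to -0.61), Cd3e was at -0.84 (-1.12 to -0.58), and Trac was at -0.40 (-0.66 to -0.16). Cd5, a brake on receptor signaling, was the only one above 0, at 73.9 CPM in WT and 126.7 CPM in Vsir-/- cells (0.78, 0.35 to 1.19). With the free RNA profile subtracted, the median turned to 0.25 for the receptor list and to 0.068 for the CD8 lineage list. The CD8 lineage median was -0.27 in cells with at most 5% mitochondrial UMIs and -0.32 without the cells rich in tubule RNA. Trbc1 (-0.80) and Trbc2 (-0.30) are near-identical copies whose reads the counting could split, so their separate values are uncertain.

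Few cells held a readable variable segment. At least 1 of 18 listed Trbv segments was detected in 104 of 659 WT cells (15.8%) and in 1 of 50 Vsir-/- cells. Among 99 WT cells with exactly 1 segment, 15 segments were seen. Trbv12-2 was found in 23 of them (23.2%, 15.3 to 32.8), followed by Trbv20 in 13, Trbv2 in 10, and Trbv13-1 and Trbv19 in 7 each. No segment was carried by most of these WT cells. Usage was not described for the Vsir-/- cells, of which 1 held a segment.

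Genes of the memory phenotype were higher on balance. All 22 passed the filter, 16 were above 0, 6 were at least 2-fold higher (background 9.63%), 0 were at least 2-fold lower, and the list median was 0.36. Ccl5, a chemokine kept as ready mRNA in memory cells, was at 539.5 CPM (519.4 to 560.1) in WT and 1585 CPM in Vsir-/- cells, a log2 ratio of 1.56 (1.43 to 1.68). Cxcr3, the receptor for the interferon-induced chemokines, was at 27.5 and 63.3 CPM (1.21, 0.56 to 1.80). In cells without Ccl5 its ratio was -1.09 from 35 WT UMIs and 1 Vsir-/- UMI, too few to read a direction. Id2, a regulator of effector differentiation, was at 116.8 and 228.4 CPM (0.97, 0.65 to 1.27). Il2rb and Eomes lay nearer to equality, with log2 ratios of 0.29 (-0.07 to 0.63) and 0.39 (-0.32 to 1.03). Ly6c2, the most abundant memory gene in the WT cells, was lower, at 796.5 and 612.9 CPM (-0.38, -0.56 to -0.20). Ly6c1, with the highest ratio, rested on 14 and 9 UMIs, and 6 of the 9 came from 1 cell, and with the free RNA profile subtracted its ratio turned to -4.00.

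Ccl5 was not spread evenly over the cells. In the WT library, 378 cells (57.4%) had 0 Ccl5 UMIs and 64 cells (9.71%) had 10 or more, and those 64 cells supplied 85.5% of the Ccl5 UMIs. In the Vsir-/- library, 22 cells (44%) had 0 and 15 cells (30%) had 10 or more, supplying 95.3%. Between these ends, 33 WT cells and 5 Vsir-/- cells had 3 to 9 UMIs. A high Ccl5 count was therefore found in a larger share of the Vsir-/- cells. Some of the low counts can be free RNA, because 22.5% of WT B cells and 14.8% of Vsir-/- B cells also had a Ccl5 UMI.

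The naive genes were also compared after a split of the cells by Ccl5. In cells without a Ccl5 UMI the naive list median was -0.41, on the same side as in the whole cluster. Among cells without a Ccl5 UMI, Ccr7 was at 477.5 CPM (450.8 to 505.3) in WT and 418.8 CPM (323.9 to 532.8) in Vsir-/- cells. Lef1 was at 492.6 CPM and 456.8 CPM, and Dapl1 at 563.2 CPM and 507.6 CPM. The intervals of these 3 genes overlapped between the libraries. For Dapl1 this is uncertain, since 1 Vsir-/- cell supplied 43 of its 123 UMIs, and 80 of the 123 lay in cells without Ccl5. Other members of the list lay apart. Satb1 was at 652.5 CPM (621.2 to 684.9) and 310.9 CPM (230.0 to 411.0), and Tcf7 at 492.2 CPM (465.2 to 520.5) and 355.3 CPM (268.4 to 461.4). The intervals of Il7r, Foxp1, Igfbp4, Ets1, Txk, and Ccr9 did not overlap either, with all 6 lower in the Vsir-/- cells. Klf2 lay apart in the other direction, at 1158 CPM (1116 to 1201) and 1973 CPM (1760 to 2205). Among cells with a Ccl5 UMI, Ccr7 was at 390.3 CPM (366.5 to 415.3) and 175.7 CPM (130.4 to 231.7), and Lef1 was at 396.6 and 203.8 CPM. The cells with Ccl5 differed in their Ccl5 counts, since 184 of the 281 WT cells and 8 of the 28 Vsir-/- cells had only 1 to 2 Ccl5 UMIs. No direction was read for the memory list in cells without Ccl5, because Ccl5 is a member of that list and 6 further members (Cd44, Tbx21, Cd160, Klrc1, Klrc2, Il18r1) had 0 UMIs in the 22 Vsir-/- cells.

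**Figure D4:**
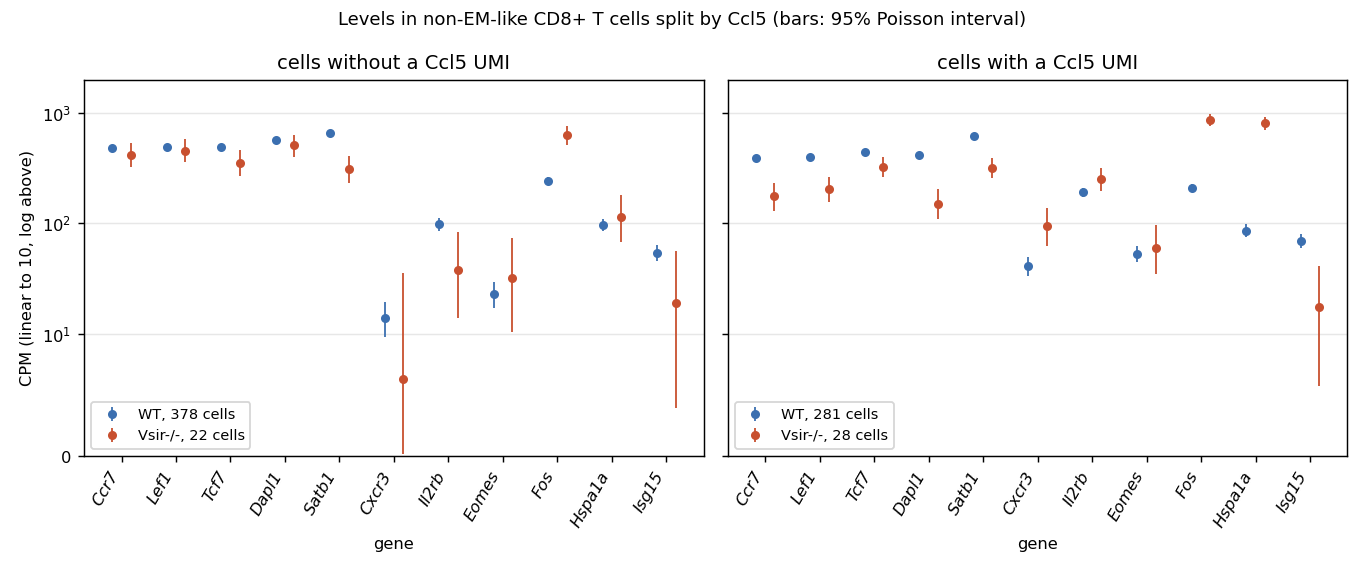
Levels of 11 genes (CPM, linear to 10 and log above) in cells without (left) and with (right) a Ccl5 UMI, for each library, with 95% Poisson intervals. Ccr7, Lef1, and Dapl1 overlap between libraries on the left and lie apart on the right, Satb1 lies apart on both sides, and Hspa1a lies apart only on the right, at 85.8 CPM in WT and 808.4 CPM in Vsir-/- cells. For Dapl1, 1 Vsir-/- cell supplied 43 of the 123 UMIs of its library, so its pattern is uncertain.

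Effector transcripts stayed at low levels. Of 15 listed genes 11 passed the filter, 4 were at least 2-fold higher (background 9.63%) and 2 at least 2-fold lower (12.6%). The list median was 0.65. After thinning to 1000 UMIs it was -2.97, but only over the members still past the filter, so the 2 medians do not cover the same genes. The list summed to 188.7 CPM (176.9 to 201.1) in WT and 271.4 CPM (225.0 to 324.5) in Vsir-/- cells. Ifng, the signature cytokine of effector CD8+ T cells, was counted as 15 UMIs in 12 WT cells and as 25 UMIs in 9 Vsir-/- cells, or 2.96 CPM and 56.5 CPM (log2 ratio 4.25, 3.27 to 5.28). A single cell supplied 9 of the 25 UMIs. The share of WT cells with a UMI (1.82%) was near that of WT B cells (1.34%, median depth 3426 UMIs), whereas 18% of the Vsir-/- cells and 1.14% of Vsir-/- B cells had one. In EM-like CD8+ cells Ifng was at 171.3 and 1295 CPM. Gzma, a granzyme, went the other way, with 206 UMIs in 134 WT cells and 2 UMIs in Vsir-/- cells (-3.17, -6.23 to -1.30). Outside the T cell clusters Gzma was at 3952 CPM in the WT and 767.1 CPM in the Vsir-/- library, and the part of free RNA in its level here was not tested. Prf1, the pore-forming protein, was at 43.5 and 22.6 CPM (-0.94, -2.02 to -0.04). The chemokine Ccl4 was at 15.2 and 54.3 CPM (1.83, 1.11 to 2.51), and Gzmk had 0 UMIs in WT cells and 7 UMIs in 1 Vsir-/- cell.

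Early response genes were higher in the Vsir-/- cells. This list, called dissociation stress because digestion of tissue induces these genes, had all 24 members past the filter, with 22 above 0, 11 at least 2-fold higher (background 9.63%), 0 at least 2-fold lower, and a median of 0.95. Fos was at 225.7 CPM in WT and 778.0 CPM in Vsir-/- cells (1.79, 1.61 to 1.96). Jun, its partner in the AP-1 factor, was at 320.7 and 841.4 CPM (1.39, 1.23 to 1.55). Dusp1, a phosphatase of MAP kinases, was at 62.0 and 291.8 CPM (2.23, 1.93 to 2.53). Thinned to 1000 UMIs, Jun was detected in 22.3% (19.2 to 25.7) of WT cells and 58% (43.2 to 71.8) of Vsir-/- cells, and Dusp1 in 5.46% (3.86 to 7.48) and 26% (14.6 to 40.3). The Jun and Dusp1 intervals did not overlap. Btg1, an antiproliferative gene and the most abundant of the list in WT cells, was lower at 1489 and 990.6 CPM (-0.59, -0.73 to -0.45), and Atf3 was the highest at 1.78 and 38.4 CPM, with 52.9% of its 17 UMIs in 1 cell and a log2 ratio that turned to -1.05 after thinning. The list median was 0.71 in EM-like CD8+ cells, 0.98 in EM-like CD4+ cells, and 0.54 in NK cells, but -0.42 in B cells and -0.48 in neutrophils. The parts that digestion, sorting, and genotype had in it were not tested.

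Some genes of the activation list had higher levels in the Vsir-/- cells. Of 22 listed activation and inhibitory receptor genes, 13 passed, 4 were at least 2-fold higher (background 9.63%), 2 were at least 2-fold lower (12.6%), and the median was 0.54. After thinning to 1000 UMIs the median was -2.85, but only over the members still past the filter, which were not all of the 13. Unthinned, the list median was 0.76 in EM-like CD8+ cells, 0.16 in EM-like CD4+ cells, -0.26 in NK cells, -0.01 in B cells, and -0.30 in neutrophils. The parts that digestion, sorting, and genotype had in these levels were not tested. Nr4a1, an immediate target of receptor signaling, was at 15.02 CPM in WT and 117.6 CPM in Vsir-/- cells (2.97, 2.43 to 3.497), detected in 54 of 659 and 24 of 50 cells. Nr4a2 was at 18.6 and 92.7 CPM (2.32, 1.75 to 2.86). Cd69, which retains T cells in tissue, was the most abundant at 496.2 and 710.2 CPM (0.52, 0.34 to 0.69). The exhaustion-associated factor Tox was lower, at 53.0 and 22.6 CPM (-1.23, -2.30 to -0.33). The inhibitory receptors Pdcd1, Havcr2, and Tigit had 0 UMIs in the Vsir-/- cells and 2, 3, and 4 UMIs in the WT cells, so no difference could be read at this depth. Of 14 tissue residency genes 11 passed, 3 were at least 2-fold higher (background 9.63%), and 1 was at least 2-fold lower (12.6%), with a median of 0.54. Over the alternatives this median ranged from 0.098 to 1.19. The lower gene was Itgae, the integrin chain CD103, with 164 UMIs in WT and 4 UMIs in Vsir-/- cells (-1.84, -3.73 to -0.46). Itga1, another residency integrin, had 0 UMIs in WT cells and 15 UMIs in 7 Vsir-/- cells.

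Heat shock genes had higher levels as well. Of 15 listed genes 14 passed, 12 were above 0, 4 were at least 2-fold higher (background 9.63%), and 0 were at least 2-fold lower, with a median of 0.60. The list median was 0.48 in EM-like CD8+ cells, 0.64 in EM-like CD4+ cells, 0.67 in NK cells, 0.36 in B cells, and 0.081 in neutrophils. Hspa1a, an inducible HSP70 chaperone, was at 91.1 CPM in WT and 560.9 CPM in Vsir-/- cells (2.62, 2.39 to 2.85), and 28.6% of its 248 UMIs in the Vsir-/- cells came from 1 cell. Hspa1b was at 144.6 and 696.6 CPM (2.27, 2.07 to 2.46). These are near-identical copies, so reads can be split between them. The constitutive chaperone Hsp90ab1 was at 1732 and 2438 CPM (0.49, 0.40 to 0.58). The Hspa1a promoter is shown because it carries a heat shock element, searched as GAANNTTC (the same on both strands), in capitals. It spans chr17:34972107-34972406 on the minus strand of GRCm38.p6 and comes from RefSeq, from 250 bases before to 50 after the start of the gene.
Hspa1a: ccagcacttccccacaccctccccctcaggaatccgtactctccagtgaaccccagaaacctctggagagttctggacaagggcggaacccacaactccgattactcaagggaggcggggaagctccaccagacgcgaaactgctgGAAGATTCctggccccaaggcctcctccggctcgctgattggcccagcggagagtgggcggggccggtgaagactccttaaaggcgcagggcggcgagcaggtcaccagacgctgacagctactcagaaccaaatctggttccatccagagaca
The element was found in at least 1 promoter of 9 of the 12 listed heat shock genes with an entry and in at least 1 promoter of 9.04% of all 27025 genes (7.86% of 32851 promoters). In cells without a Ccl5 UMI, Hspa1a was at 96.5 CPM (84.7 to 109.4) in WT and 114.2 CPM (67.7 to 180.5) in Vsir-/- cells, whereas in cells with one it was at 85.8 CPM and 808.4 CPM. Fos, in contrast, was higher on both sides of the split, at 241.1 and 628.1 CPM without Ccl5 and at 210.4 and 861.1 CPM with it.

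Type I interferon response genes were lower in the Vsir-/- cells. Of 38 listed genes 37 passed, 33 were below 0, 12 were at least 2-fold lower (background 12.6%), 1 was at least 2-fold higher, and the median was -0.64. This median was -0.17 after thinning to 1000 UMIs, -0.37 in cells with at most 5% mitochondrial UMIs, -0.39 without the 4 cells richest in tubule RNA, and -0.38 in cells without Ccl5. Isg15, a ubiquitin-like modifier, was at 61.5 CPM in WT and 18.1 CPM in Vsir-/- cells (-1.76, -2.99 to -0.77). Ifi206 was at 146.2 and 49.8 CPM (-1.56, -2.24 to -0.95), and Slfn8 was at 61.9 and 15.8 CPM (-1.97, -3.29 to -0.91). The most abundant member, Ifi27l2a, was at 932.1 and 601.6 CPM (-0.63, -0.82 to -0.45). The 1 higher gene, Rsad2, had 10 UMIs in the Vsir-/- cells, of which 90% came from 1 cell, and its ratio turned to -5.09 with the free RNA profile subtracted. The lowest was Ifit3b, with 34 UMIs in WT and 0 UMIs in Vsir-/- cells, and it is a near-identical copy of Ifit3 (161 and 6 UMIs). Its promoter is shown for its interferon-stimulated response elements, searched on both strands as GAAA, any 2 bases, and GAAA, and printed in capitals. It spans chr19:34607707-34608006 on the plus strand of GRCm38.p6 in RefSeq.
Ifit3b: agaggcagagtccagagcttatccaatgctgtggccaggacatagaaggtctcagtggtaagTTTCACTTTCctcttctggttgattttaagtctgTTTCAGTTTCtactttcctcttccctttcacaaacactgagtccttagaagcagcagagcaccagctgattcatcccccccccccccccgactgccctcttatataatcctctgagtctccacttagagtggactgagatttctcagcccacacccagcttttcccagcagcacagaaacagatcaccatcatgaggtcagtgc
The element was found in at least 1 promoter of 19 of the 31 listed genes with an entry and of 3.99% of all genes (3.44% of promoters). The list median was also below 0 in EM-like CD4+ cells (-0.34), NK cells (-0.50), and neutrophils (-0.93), and was near 0 in EM-like CD8+ cells (-0.09) and B cells (-0.09).

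Interferon gamma response genes showed no common direction. Of 24 listed genes 21 passed, 2 were at least 2-fold higher (background 9.63%), 3 were at least 2-fold lower (12.6%), and the median was -0.17, so both shares lay near the background. Cxcl10 was the highest, at 5.53 and 24.9 CPM (2.17, 1.01 to 3.22), and the guanylate-binding protein gene Gbp8 the lowest (-1.33, -2.67 to -0.26). The 9 genes of the receptor and its signaling had 0 calls in either direction and a median of -0.13, which turned to 0.37 with the free RNA profile subtracted. MHC class I presentation genes had a median of -0.16, with 0 higher (background 9.63%) and 3 lower (12.6%) calls of 22, and B2m, the light chain of class I, was at 2075 and 1913 CPM (-0.12, -0.22 to -0.02). Homeostatic cytokine receptor genes had a median of -0.17, with 1 higher and 1 lower call of 19 (9.63% and 12.6%), and their most abundant gene, the survival factor Bcl2, was at 580.0 and 434.3 CPM (-0.42, -0.64 to -0.21). The class I and cytokine receptor medians turned to 0.13 and 0.38 with the free RNA profile subtracted, and the interferon gamma response median to 0.10 in cells without Ccl5.

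**Figure D5:**
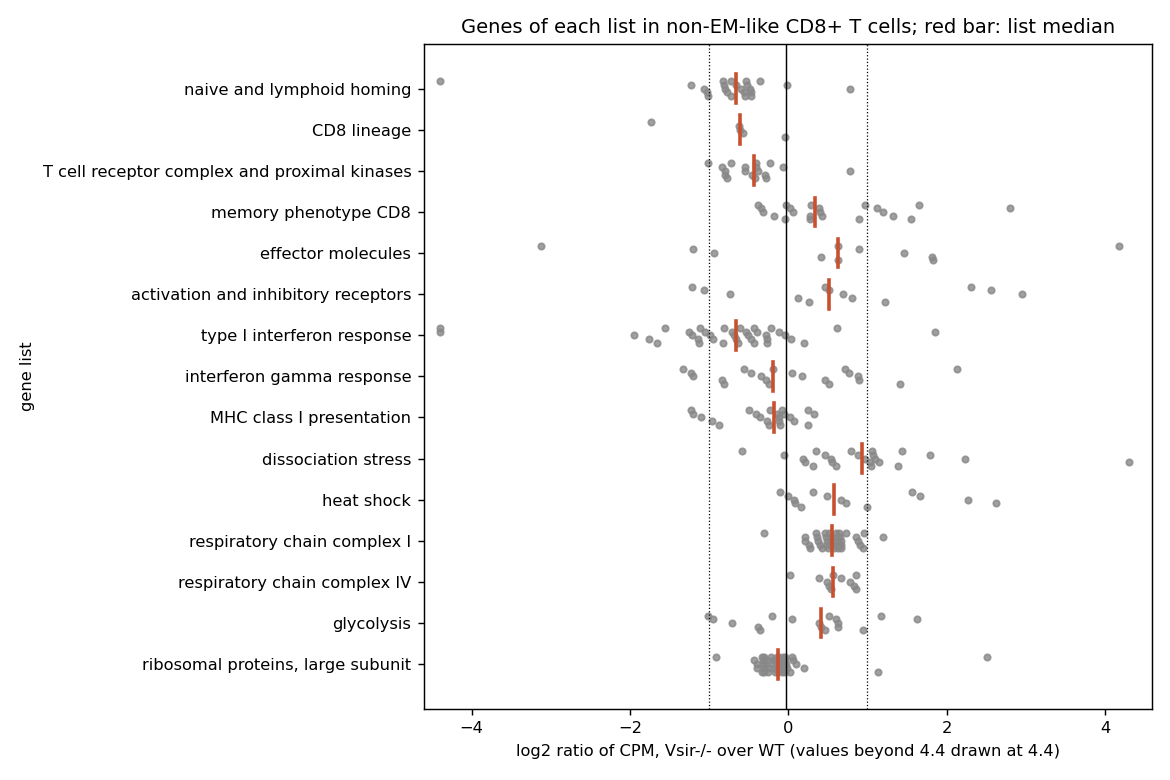
Log2 ratio of CPM in Vsir-/- over WT non-EM-like CD8+ T cells (x axis) for each gene of 15 lists that passed the filter (points), with list medians as red bars, the all-gene median as a solid line, and dotted lines at 2-fold. The naive, T cell receptor, and type I interferon lists lie to the left, dissociation stress (uncentered median 0.93) and heat shock (0.58) to the right, and interferon gamma response genes on both sides.

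Most genes of the respiratory chain had ratios above 0, but few passed 2-fold (background 9.63%). Complex I ranged from -0.31 (Ndufs4) to 1.20 (Ndufab1) on the log2 scale. It had 36 of 37 genes above 0, 1 at least 2-fold higher, and a median of 0.58, and its summed level was 4447 CPM (4389 to 4506) in WT and 6503 CPM (6267 to 6745) in Vsir-/- cells. The medians were 0.90 for complexes II and III (4 higher calls of 14), 0.59 for complex IV (0 of 11), and 0.64 for ATP synthase (3 of 17). All 3 ATP synthase calls (Atp5o, Atp5md, Atp5mpl) were symbols with no UMI anywhere in the WT library. Merged with the older symbols of the same genes, Atp5md had a log2 ratio of 0.90 and Atp5mpl one of 0.05. Ndufa4, the most abundant complex I gene, was at 339.7 and 531.5 CPM (0.65, 0.44 to 0.84). These medians stood beside larger ones in B cells, at 1.03 for complex I and 1.09 for ATP synthase, and smaller ones in NK cells, at 0.23 and 0.40. With the free RNA profile subtracted, the medians were -0.03 for complex I, 0.23 for complexes II and III, 0.11 for complex IV, and 0.32 for ATP synthase. Fatty acid oxidation genes had a median of 0.96 with 9 higher calls of 22 (background 9.63%). Their median was 1.39 in B cells, 1.17 in neutrophils, and 0.29 in EM-like CD8+ cells, and in the cluster it was 0.24 with the free RNA profile subtracted and 0.35 without the 4 cells richest in tubule RNA. Acsl1, which activates fatty acids, was at 5.93 and 33.9 CPM (2.52, 1.52 to 3.46), and turned to -0.53 with the free RNA profile subtracted. Genes of the mitochondrial DNA summed to 39565 and 42912 CPM (median 0.24). Glycolysis genes had a median of 0.43, with 2 higher (background 9.63%) and 1 lower (12.6%) calls of 17, and the median turned to -0.40 with the free RNA profile subtracted. The glycolytic enzyme gene Gapdh was at 499.9 and 759.9 CPM (0.60, 0.44 to 0.77).

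Ribosomal protein genes took the largest part of the RNA. Those of the large subunit summed to 235238 CPM in WT and 214954 CPM in Vsir-/- cells (median -0.10), and those of the small subunit to 209841 and 185631 CPM (median -0.13). With the free RNA profile subtracted, these medians turned to 0.47 and 0.43. The large-subunit list held 2 higher calls of 46 (background 9.63%) and 0 lower calls (12.6%), and the small-subunit list held 0 calls of 32 in either direction. Rpl13a, at 1001 and 5695 CPM (2.51, 2.44 to 2.58), was one of the 2, and its log2 ratio was 2.71 in EM-like CD8+ cells and 2.11 in B cells. Cell cycle genes had 3 higher (background 9.63%) and 1 lower (12.6%) calls of 11, and the proliferation marker Mki67 had 17 UMIs in WT and 12 UMIs in 3 Vsir-/- cells.

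The genes with the most extreme ratios were chosen by a rule of size among genes with at least 100 UMIs in all and at least 4 in each library, which leaves out genes such as Gpx3, Vsir, Ccr9, and Gzma. The 5 highest of these were Atp6v0c, Nme2, Ndrg1, Ldhb, and Maf, and the lowest included Gstp1, Slc43a2, Letm2, and Art2b. Nme2, a nucleotide kinase, was at 9.68 CPM in WT and 995.2 CPM in Vsir-/- cells (6.68, 6.26 to 7.14), with log2 ratios of 6.61 in EM-like CD8+ cells and 7.45 in B cells. Nme2 thus differed alike in unrelated cells. Maf, a factor of activated and regulatory T cells, was at 6.92 and 237.5 CPM (5.10, 4.54 to 5.70), with 56.2% of its 105 UMIs in 1 of 12 cells, and its log2 ratio was 0.62 in B cells. Art2b, an ADP-ribosyltransferase on the surface of resting T cells, had 280 UMIs in WT and 6 UMIs in Vsir-/- cells (-2.03, -3.49 to -0.89). Slc43a2, an amino acid transporter, had 249 and 5 UMIs (-2.12, -3.76 to -0.88), with log2 ratios of -0.21 in EM-like CD8+ cells and -0.37 in B cells.

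Among genes above their level outside the T cell clusters of the same library, the 10 highest also held Rida, Fxyd4, Chchd10, Atp1b1, Ass1, Rpl13a, and Nr4a2, and the 10 lowest also held Gm19705, Ndrg3, Itgae, Gm43698, and Rapgef4. Ass1, an enzyme of arginine synthesis, was at 49.4 and 348.3 CPM (2.82, 2.52 to 3.11), with 45.5% of its UMIs in 1 Vsir-/- cell. Fxyd4, a sodium pump subunit of the kidney, was at 8.69 and 138.0 CPM (3.99, 3.41 to 4.58), with 70.5% of its UMIs in 1 cell, and turned to -0.45 with the free RNA profile subtracted. Under the same setting Chchd10 turned to -2.59 and Atp1b1 to -7.87. A few cells thus supplied much of these values. The last 5 lower genes rested on 4 to 6 UMIs in the Vsir-/- cells, for example Ndrg3 with 250 UMIs in WT and 6 in Vsir-/- cells.

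Kidney tubule transcripts moved with the Vsir-/- library. Of 40 listed tubule genes 29 passed the filter, and all 29 of these were at least 2-fold higher (background 9.63%). Genes with 0 WT UMIs could pass only through their Vsir-/- counts, which fixed their call in advance, so this count is a description. The list summed to 192.3 CPM (180.4 to 204.7) in WT and 8197 CPM (7932 to 8468) in Vsir-/- cells. In the WT cells the list was low, since 32 of its genes had 0 UMIs there, and 24 had none anywhere in the WT library. Dbi, a lipid carrier that many tissues express, was its most abundant gene in WT cells. Gpx3, the most abundant in Vsir-/- cells and a secreted peroxidase of the proximal tubule, had 0 UMIs in WT and 521 UMIs in Vsir-/- cells, and Slc34a1, Umod, and Kap, which define tubule segments, had 0 UMIs in WT and 203, 77, and 42 UMIs in Vsir-/- cells. The list held 0.0156% of the UMIs of the median WT cell (highest 0.112%) and 0.269% of the median Vsir-/- cell (lowest 0.112%, highest 5.59%), and 4 of 50 Vsir-/- cells were above 1%. Thus every Vsir-/- cell carried some. Without those 4 cells the medians were -0.42 for the naive list, 1.11 for dissociation stress, and 0.43 for complex I.

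Markers of other immune and kidney cells were counted in the same way. B cell genes summed to 337.5 and 357.4 CPM, with 10 of 17 past the filter, Ighm as the most abundant in WT cells, and Cd79a at 41 UMIs in WT and 0 UMIs in Vsir-/- cells. Of the 10 genes, 5 were at least 2-fold lower (background 12.6%) and 3 at least 2-fold higher (9.63%), the latter being Cd74, H2-Aa, and H2-Ab1 of MHC class II presentation, at 215, 88, and 66 UMIs in WT and 58, 19, and 26 UMIs in Vsir-/- cells. NK cell genes summed to 1452 and 2323 CPM, with 10 of 14 past the filter, but Ccl5 alone supplied 2730 of their 7348 UMIs in WT and 701 of 1027 in Vsir-/- cells. The list median was -0.53, with 6 of the 10 below 0 and 2 higher (background 9.63%) and 3 lower (12.6%) calls. Nkg7, most abundant in WT cells, had 3702 and 260 UMIs, and the defining Ncr1 and Klrb1c had 5 and 3 UMIs in WT and 1 and 0 UMIs in Vsir-/- cells. Macrophage genes summed to 333.6 and 488.5 CPM (8 of 17 past the filter), with a list median of -0.71, 5 of the 8 below 0, and 2 higher (background 9.63%) and 2 lower (12.6%) calls. Ctss was their most abundant gene in WT cells (609 and 33 UMIs) and Cd74 in Vsir-/- cells, Lyz2 had 236 and 12 UMIs, and the defining C1qa and Cd68 had 9 and 30 UMIs in WT and 4 and 0 UMIs in Vsir-/- cells. Neutrophil genes summed to 192.3 and 83.7 CPM (4 of 11 past the filter, S100a9 most abundant). Their list median was -1.20, with 0 higher (background 9.63%) and 3 lower (12.6%) calls. Endothelial genes summed to 98.6 and 282.7 CPM (3 of 12 past the filter), with Pecam1 as the most abundant in WT cells at 263 and 21 UMIs. The endothelial markers Kdr, Plvap, and Emcn had 0 UMIs in WT and 17, 14, and 10 UMIs in Vsir-/- cells. The CD4 and regulatory list summed to 71.1 and 67.9 CPM (3 of 9 past the filter, Ikzf2 most abundant), with Foxp3 at 1 and 0 UMIs. Gamma delta genes summed to 21.9 and 27.1 CPM (2 of 13 past the filter), with Trdc, the most abundant in WT cells, at 38 and 0 UMIs. Erythroid and platelet genes had 1 and 3 UMIs in all (0 of 8 past the filter, Itga2b most abundant), with Hbb-bs at 0 UMIs in both. The part of free RNA or attached cells in the results above was not tested beyond the alternatives given.

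The cluster was last set beside its closest neighbors within the WT library, as a description. Of 5261 genes with at least 100 UMIs in the 2 CD8+ clusters together, 296 were at least 2-fold higher in non-EM-like cells and 764 at least 2-fold lower. The 5 highest were Rapgef4, Dapl1, Auts2, Myb, and Vipr1, and of these Rapgef4, Auts2, Myb, and Vipr1 had 0 UMIs in the WT EM-like cells. The 5 lowest were Itga1, S1pr5, Klrb1c, Cx3cr1, and Zeb2, of which Cx3cr1, a receptor of circulating effector cells, was at 1.58 CPM in non-EM-like and 551.5 CPM in EM-like cells. In the Vsir-/- library the same gene was at 2.26 and 409.5 CPM. Of the 197 WT EM-like cells, 90 had no UMI of Cd8a, Cd8b1, or Cd4. The NK list summed to 53136 CPM in the WT EM-like cells and 58319 CPM in WT NK cells. These ratios therefore set the cluster beside a neighbor whose cells were not all shown to be CD8+ T cells.

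Against non-EM-like CD4+ T cells with a T cell transcript, far fewer genes differed. Of 6474 genes, 125 were at least 2-fold higher in the CD8+ cells and 76 at least 2-fold lower. Cd8a, Ly6c2, Cxcr3, and the unnamed transcripts Gm44175 and Gm43698 were the 5 highest, with Ly6c2 at 796.5 and 12.1 CPM. The 5 lowest were Cd4, Ly6c1, St8sia6, Pdlim4, and Cd40lg, the last encoding the CD40 ligand of helper T cells, at 2.37 and 76.5 CPM. Ly6c2 and Ly6c1, neighbors in the Ly6 family, thus lay on opposite sides, Ly6c1 at 2.77 and 121.6 CPM.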

How the data were processed

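The submitters' processing notes name Cell Ranger 3.1.0, R 4.0.3, Seurat 3.2.3, and the build mm9 for the scRNA libraries, 1 from WT and 1 from Vsir-/- kidney. The deposited matrix holds whole-number UMI counts without normalization. The deposited percent of mitochondrial UMIs per cell was used for medians and as a filter, and 2 columns of UMAP coordinates were not used. How doublets were treated is not given in the sources used here, and none were removed here.

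UMIs were summed over the cluster in each library. The log2 ratio of CPM with a pseudocount of 0.5 UMIs ranked genes and gave list medians, from which the median of all genes with at least 20 UMIs was subtracted. Ratios of single genes are printed without a pseudocount. A call is a ratio of at least 2-fold. Cells were thinned to 1000 UMIs, which left out 0 cells of the cluster. Of the 662 entries in 34 gene lists, Znf683 matched no feature. Steps were checked on simulated counts. No p-value was computed, because cells are not replicates.

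The members and lists were chosen with earlier results of these data known. Named genes were all markers and the 5 highest and 5 lowest ratios among genes with at least 100 UMIs and 4 in each library. The 10 highest and 10 lowest of those above their level outside the T cell clusters were added. So were the most abundant, highest, and lowest gene of each list and all genes of the list that holds Vsir. The 5 most frequent Trbv segments and the 5 highest and lowest against each neighboring cluster completed the set. Some of these are not reported here. The genes not covered by this rule, the sex-linked transcripts, and the split by number of Ccl5 UMIs were chosen after their values were seen. Alternatives changed the cells kept, depth, weighting, denominator, filter, pseudocount, centering, and free RNA. Python 3.11.15, numpy 2.4.6, scipy 1.17.1, pandas 2.3.3, and matplotlib 3.10.9 were used.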

Additional observations from a re-analysis of the deposited data

Results flagged for a closer look

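Among the named genes, 3 had counting intervals on opposite sides of 0 in the non-EM-like and EM-like CD8+ clusters, and the difference between the clusters was not tested. In the EM-like cluster, 90 of 197 WT and 7 of 28 Vsir-/- cells had no UMI of Cd8a, Cd8b1, or Cd4. The NK list summed to 53136 CPM in its WT cells and 30855 CPM in its Vsir-/- cells. The part that this make-up of the EM-like cluster had in the 3 results was not tested. Cd8b1 had a log2 ratio of -0.58 (-0.76 to -0.40) in non-EM-like cells and 0.57 (0.21 to 0.91) in EM-like cells, which had 308 WT and 92 Vsir-/- UMIs. Ifi27l2a, an interferon-induced gene, was at -0.63 (-0.82 to -0.45) and 0.34 (0.09 to 0.59). Klrk1, which encodes the receptor NKG2D, was at 2.93 (1.84 to 3.98) and -2.52 (-3.17 to -1.93), and its 14 UMIs in the Vsir-/- non-EM-like cells lay in 4 cells, with 64.3% in 1 of them.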

How the results depend on the processing

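No paired analysis was possible because each genotype had 1 library, and for the same reason no replicate could be left out. Depth in the 50 Vsir-/- cells limits the lower side most, since an equal level at the filter gives 1.61 UMIs there. Over all settings, 369 of 459 list medians stayed within 0.25 of their value and 1084 of 1380 values of named genes stayed near or within their counting intervals. Of medians over 0.25 from 0, 16 turned direction, as did 17 values of genes at least 2-fold apart, and medians nearer to 0 changed sign more often. The counts of higher and lower genes became 3638 and 3781 from 1 UMI on and 433 and 677 from 50 UMIs on. Higher genes numbered 518 in cells with at most 5% mitochondrial UMIs and 313 after thinning, which tested fewer genes. Free RNA subtraction, which removed 23.9% of the Vsir-/- UMIs, can be too large for most cells, as described above for the naive genes. It gave 462 higher and 2554 lower genes. It set list medians at -0.081 for naive, 0.068 for CD8 lineage, 0.25 for T cell receptor, 0.74 for memory, 1.44 for dissociation stress, 0.95 for heat shock, -0.031 for complex I, -0.40 for glycolysis, 0.051 for NK, and -4.80 for endothelial genes, and turned the ribosomal large and small subunit medians to 0.47 and 0.43. It also turned Fxyd4 (-0.45), Apoe (-5.14), Chchd10 (-2.59), Atp1b1 (-7.87), Ly6c1 (-4.00), Acsl1 (-0.53), Rsad2 (-5.09), Tpi1 (-0.84), and Eng (-5.14). Cells with at most 5% mitochondrial UMIs gave -0.38 for naive genes, -0.37 for type I interferon genes, -1.10 for Rsad2, and a WT share of 73.4%. Without the cells rich in tubule RNA, type I interferon genes were at -0.39. Thinning gave -2.97 for effector, -2.85 for activation, -0.17 for type I interferon, -1.99 for CD4 and regulatory, and 0.70 for macrophage genes, -1.05 for Atf3, -1.66 for Ctla4, 0.24 for Vipr1, and 0.53 for Stat5a. The thinned medians cover only the list members still past the filter. Cells without Ccl5 gave -0.92 for memory, -2.05 for effector, -0.38 for type I interferon, 0.69 for dissociation stress, and 0.72 for B cell genes, and -2.88 for Klrk1, -4.33 for Ahr, and -1.09 for Cxcr3. From 50 UMIs on, CD4 and regulatory genes were at -1.11 and B cell genes at 0.53. Cells with a CD8 chain and no Cd4 gave 0.30 for B cell genes and shares of 86.3% and 76.2%. The cause of these shifts was not tested.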
